A study of Homo sapiens with 12 samples.

Results

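GATA3, GATA4, GATA5 and GATA6 are 4 genes for zinc finger transcription factors, and the histone variant H2A.Z and its acetylated form (H2A.Zac) are described here over each gene body and the 20 kb on either side. The genes were chosen from the measured classes of these same regions, with GATA5 to be set beside the other 3, so what follows is a description and carries no test. In these windows the deposited lists hold 56 of the 158028 regions of both marks, of which 8 lie at GATA3, 16 at GATA4, 12 at GATA5 and 20 at GATA6.

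All libraries come from K562 cells, which were established from a chronic myeloid leukemia. Their endogenous EP400 carries a degradation tag (EP400-dTAG) and was removed with 500 nM dTAGV-1 for 24 h, in both lines alike. The WT line expresses exogenous WT EP400, and the Delta-TRRAP line (ΔTRRAP) expresses EP400 without the SANT and HD domains, through which it holds TRRAP; both come from the AAVS1 locus. Input chromatin and ChIP with antibodies to either mark were sequenced in 2 biological replicates per line, which makes 12 libraries. Each line is 1 clone, so a difference between the lines and a difference between the clones cannot be told apart.

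The authors merged the replicates and compared the lines once per mark, so a region carries 1 value and no replicate value, and its spread between replicates and the depth behind it are unknown here. A region is called lost where the signal was higher in WT, gained where it was higher in ΔTRRAP, and unchanged where the log10 likelihood ratio between the lines stayed under 3. That ratio measures the evidence for a difference and is not a fold change. Because the classes were assigned along the signal, neighboring regions can be pieces of a single peak, and a changed region can overlap an unchanged one.

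GATA factors bind DNA at short sites with a GATA core and open or close the genes nearby. GATA1 and GATA2 are the members known from blood and from K562 cells, GATA3 directs T cells and the luminal cells of the breast, and GATA4, GATA5 and GATA6 act in the heart and in organs of the endoderm. H2A.Z is deposited at promoters and enhancers by the EP400 and SRCAP complexes, the TIP60 enzyme of the EP400 complex acetylates it, and TRRAP is the subunit on which DNA-binding activators dock.

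GATA5 was the only one of the 4 genes at which every listed region was lost. Its window held 5 lost H2A.Z regions of 5 and 7 lost H2A.Zac regions of 7, with no gained and no unchanged region of either mark. At GATA3, 1 of 4 H2A.Z regions and 2 of 4 H2A.Zac regions were lost and the others were unchanged. At GATA4, all 6 H2A.Z regions were unchanged, and of 10 H2A.Zac regions 1 was lost, 2 were gained and 7 were unchanged. At GATA6, 3 of 12 H2A.Z regions were lost, 1 was gained and 8 were unchanged, and of 8 H2A.Zac regions 4 were lost, 1 was gained and 3 were unchanged. Over the genome, 19.8% of H2A.Z regions were lost and 14.1% gained, and 25.9% of H2A.Zac regions were lost and 26.3% gained. As a group, GATA3, GATA4 and GATA6 had 4 lost H2A.Z regions of 22 (18.2%) and 7 lost H2A.Zac regions of 22 (31.8%). Gained were 1 of 22 H2A.Z regions (4.55%) and 3 of 22 H2A.Zac regions (13.6%), both below the genome shares. No interval is set beside these shares, since all 4 genes were chosen from the classes of these same regions. Neighboring pieces of a peak are also not independent.

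**Figure D1:**
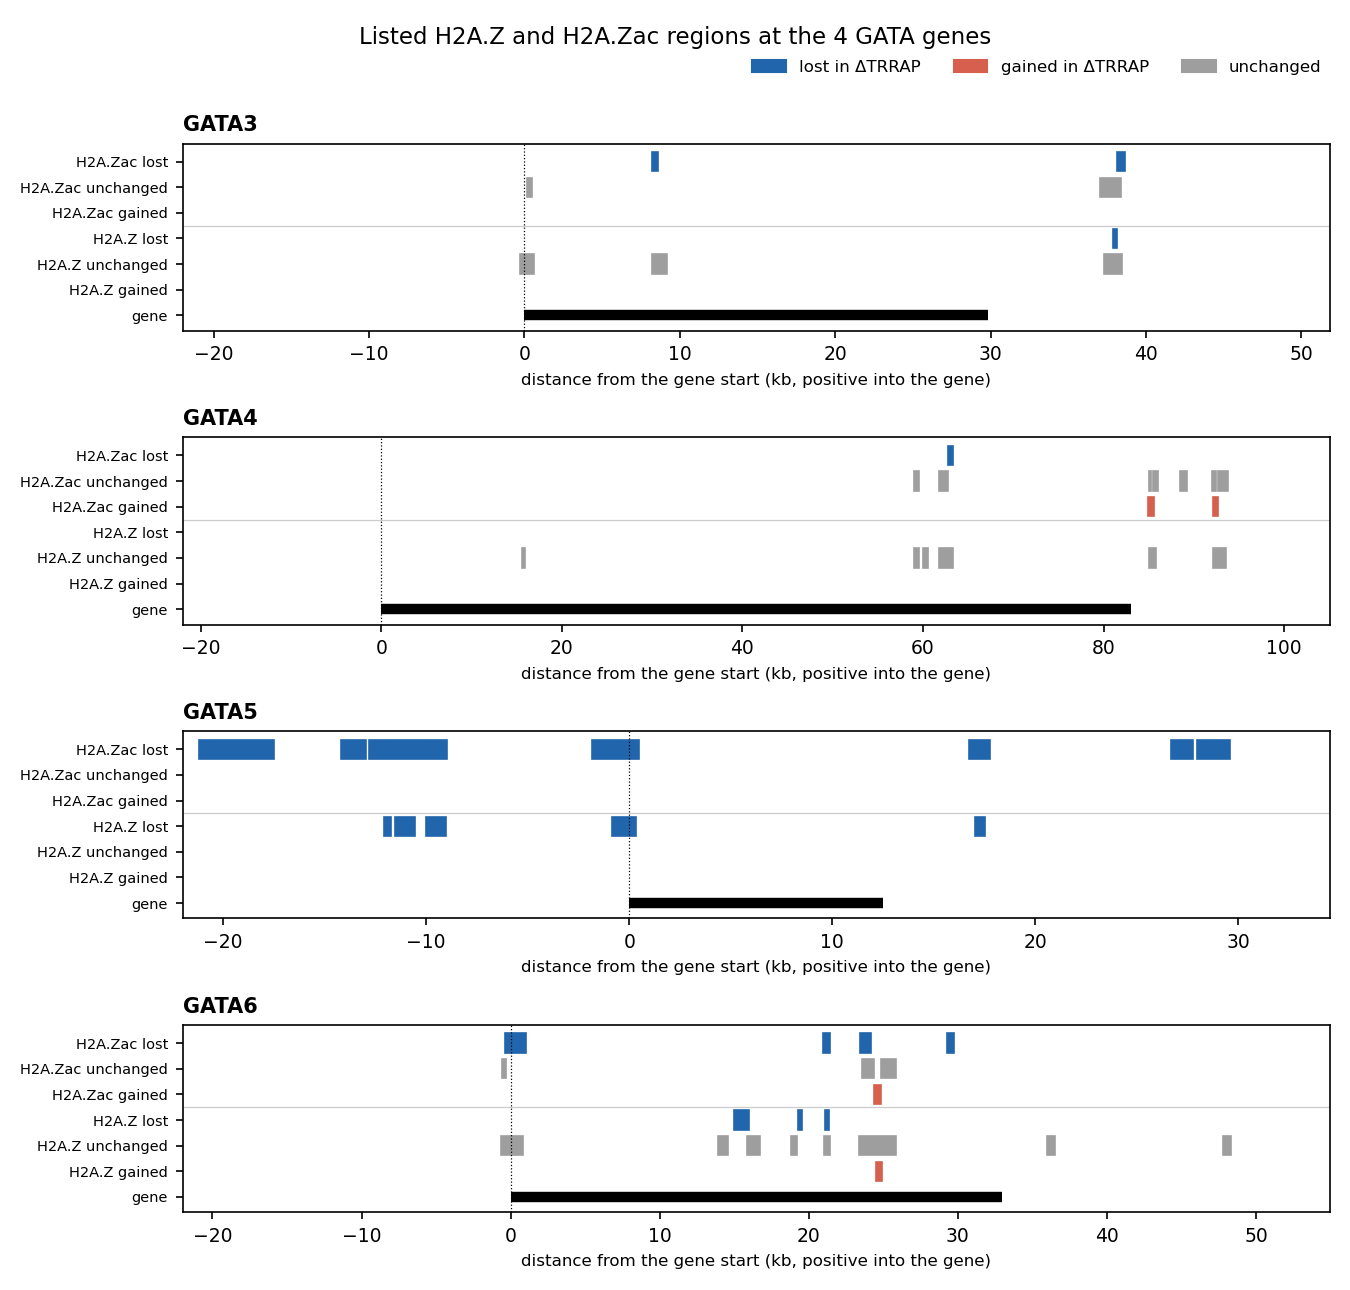
Listed regions at GATA3, GATA4, GATA5 and GATA6, plotted by distance from the gene start in kb, with a line for each mark and class and the gene body as a black bar. The 12 regions at GATA5 are all on the lost lines, at the gene start and in both flanks, while those of the other 3 genes fall on lost, unchanged and gained lines.

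Few gene windows were lost throughout. Among protein-coding genes with a listed region in the same kind of window, every H2A.Z region was lost at 204 of 17141 genes (1.19%) and every H2A.Zac region at 511 of 17479 genes (2.92%). Both marks were lost throughout at 114 of 16813 genes with regions of both marks (0.678%). Windows unchanged throughout were more frequent, with 35.9% of genes for H2A.Z and 6.48% for H2A.Zac. With at least as many regions as GATA5 itself (7 H2A.Zac and 5 H2A.Z), 1 other gene, TNS4, was lost throughout. These minimums are the counts of GATA5, and TNS4 was picked out after its values were seen, so that the number says nothing of rarity. Neighboring genes share regions, so these genes are not independent of each other.

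GATA5 (ENSG00000130700) lies on the minus strand at chr20:62463497-62475995 in hg38. Its regions fell into 3 groups, at the promoter, in the upstream flank and in the downstream flank, and none lay within the gene beyond the promoter region. At the promoter, a lost H2A.Zac region at chr20:62475526-62477827 (2302 bp) covered the gene start with a log10 likelihood ratio of 83.6. That is rank 26 of the 24482 lost H2A.Zac regions of the genome, and rank 2 among the 932 protein-coding genes with a lost H2A.Zac region on their start, whose median ratio was 9.98. A lost H2A.Z region of 1191 bp lay inside it at chr20:62475670-62476860, with a ratio of 19.2, rank 99 of 12592 lost H2A.Z regions. Among the 325 protein-coding genes with a lost H2A.Z region on their start it was rank 6. Both marks were thus called lost over the start of GATA5, and the H2A.Z region has 74.98% GC. The H2A.Zac region also reaches within 1 kb of the start of ENSG00000272050, a long noncoding RNA that runs the other way from position 62477870. The H2A.Zac loss cannot be assigned to either gene.

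Upstream of GATA5, 3 lost H2A.Zac regions lay between 8.96 kb and the edge of the window. The farthest, at chr20:62493502-62497182 (3681 bp), had a ratio of 69.6, rank 54 genome-wide, and no listed H2A.Z region on it. It reaches past the window, whose edge is at position 62495995. The nearest, at chr20:62484952-62488797, was the widest region of the 4 genes at 3846 bp and had a ratio of 18.5. Lost H2A.Z was called in 3 separate pieces inside it, with ratios of 6.52, 8.73 and 4.82, so that the loss of H2A.Z was listed in several short stretches where that of H2A.Zac was listed as 1. Between these, the region at chr20:62488961-62490212 had a ratio of 13.8, the lowest of the 7 H2A.Zac regions.

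Downstream of GATA5, the lost H2A.Zac regions had ratios of 19.7 at chr20:62458207-62459287, 15.01 at chr20:62448254-62449307 and 33.4 at chr20:62446408-62448028. The first of them, 4.21 kb beyond the gene end, held a lost H2A.Z region with a ratio of 8.82 at chr20:62458492-62458992. The last overlaps the end of ENSG00000233017, another long noncoding RNA, and no H2A.Z region was listed on it or on its neighbor. Of the 7 H2A.Zac regions of GATA5, 3 had at least 25% of their length on a lost H2A.Z region and 4 had no listed H2A.Z region at that overlap. The same shares over all lost H2A.Zac regions of the genome are not given here, so these counts are a description only.

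The 7 lost H2A.Zac regions of GATA5 had ratios from 13.8 to 83.6 with a median of 19.7, and all 7 were above the upper quartile of lost H2A.Zac regions in the genome, 13.2. All 7 were also wider than the genome median of 702 bp, with widths from 1054 to 3846 bp. Inside the window they covered 13.65 of 52.5 kb, or 26.0%, and the 5 H2A.Z regions covered 3.97 kb, or 7.56%. The lost H2A.Z regions of GATA5 had ratios from 4.82 to 19.2 with a median of 8.73. Over the genome, lost H2A.Z regions had a median of 5.95 and an upper quartile of 7.81. The ratios of 6.52 and 4.82 at GATA5 were under that quartile, and 4.82 was also under that median. H2A.Zac regions of any class covered 3.41% of the window at GATA3, 4.79% at GATA4 and 6.90% at GATA6. For H2A.Z the order differed, with 11.6% of the window at GATA6, 7.56% at GATA5, 4.404% at GATA3 and 4.17% at GATA4.

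**Figure D2:**
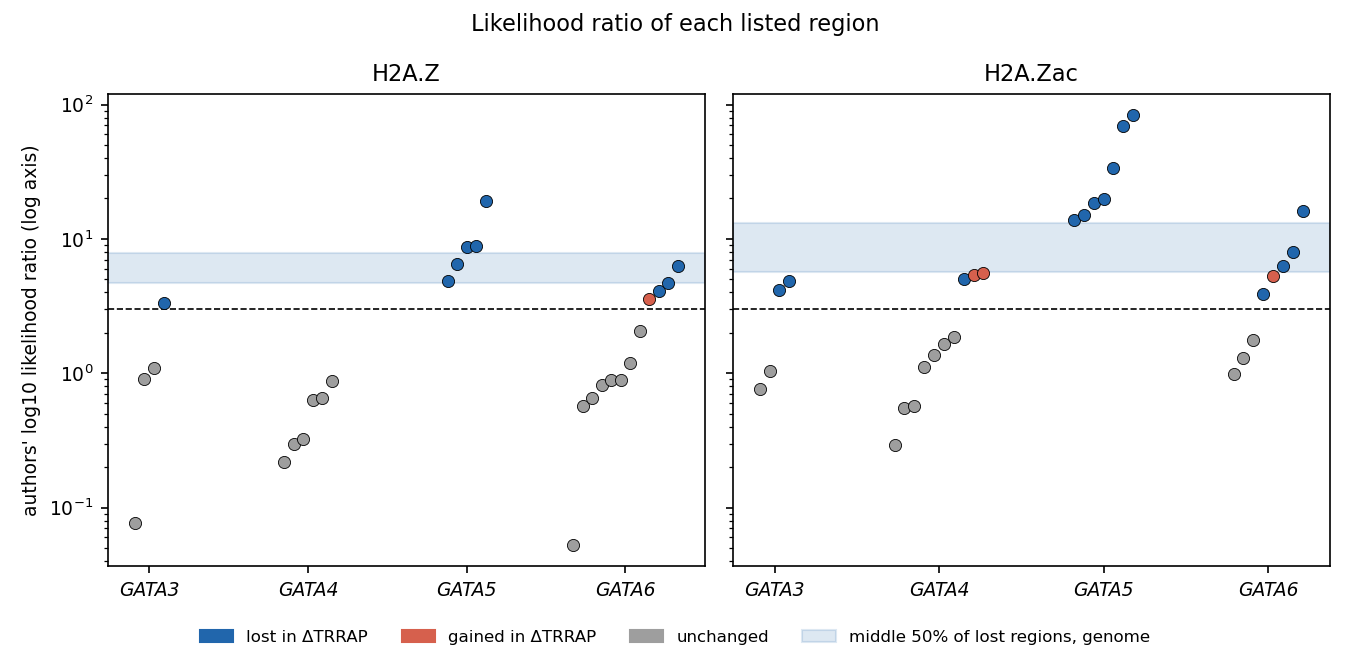
Log10 likelihood ratio of every listed region of the 4 genes on a log axis, 1 point per region, with the class in color and the authors' cutoff of 3 as a dashed line; the shaded band lies between the quartiles of all lost regions of that mark. The 7 H2A.Zac points of GATA5 lie between 13.8 and 83.6, above the band, and 1 point of the other genes, at 16.0 in GATA6, is also above it.

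Stretches of 300 bases from the middle of 2 lost regions of GATA5 show the sequence that lost these marks (hg38, plus strand). Capitals mark matches on either strand to 4 hexamers, the first being AGATAA, the second its variant with a final G (AGATAG), the third the variant of the first with an initial T (TGATAA) and the last the variant of the second with an initial T (TGATAG), which are common forms of the site that GATA factors bind.
GATA5 downstream, chr20:62458592-62458891, in a lost region of both marks: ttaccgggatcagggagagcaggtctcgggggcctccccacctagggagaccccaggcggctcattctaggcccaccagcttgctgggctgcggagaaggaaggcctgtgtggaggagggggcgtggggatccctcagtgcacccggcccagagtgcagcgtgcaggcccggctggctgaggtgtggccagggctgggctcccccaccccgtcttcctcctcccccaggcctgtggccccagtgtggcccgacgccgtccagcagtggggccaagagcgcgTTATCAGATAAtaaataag
GATA5 upstream, chr20:62495192-62495491, in the lost H2A.Zac region with a ratio of 69.6: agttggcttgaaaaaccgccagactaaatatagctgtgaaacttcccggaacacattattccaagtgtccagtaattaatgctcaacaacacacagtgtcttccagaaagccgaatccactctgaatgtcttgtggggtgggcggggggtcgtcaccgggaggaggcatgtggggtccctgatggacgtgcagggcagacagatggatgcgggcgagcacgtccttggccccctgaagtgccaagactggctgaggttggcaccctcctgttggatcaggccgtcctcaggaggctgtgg
The downstream stretch ends with 2 matches on opposite strands that share a base, and the upstream stretch has none. A match was present in the middle 300 bases of 30.5% of 57581 H2A.Z regions and 33.7% of 87079 H2A.Zac regions of at least that length, so the presence of a match is common and is given as a description.

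The regions of GATA5 were rich in G and C. The 7 lost H2A.Zac regions had 59.7 to 66.8% GC with a median of 61.2%, and the lost H2A.Zac regions of the other genes had a median of 59.2% at GATA3 (2 regions), 58.7% at GATA4 (1 region) and 44.9% at GATA6 (4 regions). The GC content of GATA5 was thus near that of the few lost regions of GATA3 and GATA4. Over the regions of all classes, the medians were 54.1% at GATA3, 49.8% at GATA4 and 47.4% at GATA6. Over the genome the median of lost H2A.Zac regions was 49.6% (quartiles, 44.6 and 55.9%), so each region of GATA5 lay above the upper quartile. The 5 lost H2A.Z regions of GATA5 had a median of 64.9% against 50.5% for lost H2A.Z regions of the genome. GATA hexamers occurred at 0.876 per kb in the H2A.Zac regions of GATA5 and at 1.47 per kb in all lost H2A.Zac regions, but 71.4% of the former (5 of 7) held a match against 57.9% of the latter. In lost H2A.Z regions the rates were 1.26 per kb at GATA5 and 1.25 per kb in the genome, so the counts show no common direction. The part of base composition in the classes at GATA5 was not tested.

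GATA6 (ENSG00000141448, plus strand, chr18:22169589-22202528) had the most listed regions, and its lost, gained and unchanged regions lay among each other. At its promoter, H2A.Zac was lost at chr18:22169195-22170591 with a ratio of 8.005, while the H2A.Z region beneath, chr18:22168953-22170439, was unchanged with a ratio of 0.573. A second H2A.Zac region of 270 bp, overlapping the upstream end of the lost one, was unchanged. The highest ratio of any changed region at GATA3, GATA4 or GATA6 was in an intron of GATA6, where H2A.Zac was lost at chr18:22190518-22191042 (525 bp) with a ratio of 16.0. On it lay a lost H2A.Z region of 250 bp with a ratio of 4.10, itself inside an unchanged H2A.Z region with a ratio of 2.08. The other lost H2A.Zac regions in introns of GATA6 had ratios of 3.91 and 6.24. Just beyond the weaker of them, H2A.Zac was gained at chr18:22193935-22194440 with a ratio of 5.29 and H2A.Z at chr18:22194124-22194488 with a ratio of 3.58, both within an unchanged H2A.Z region of 2455 bp. Lost H2A.Z without any listed H2A.Zac was seen in introns at chr18:22184596-22185566 (4.67) and chr18:22188870-22189154 (6.25). The lost H2A.Zac region and the unchanged H2A.Z region of the promoter also cover the start of GATA6-AS1, an antisense RNA, and the marks cannot be assigned to either gene. The window also holds ENSG00000264012, RNU6-702P and ENSG00000264825, with no listed region within 1 kb of their start, and ENSG00000266283, with an unchanged H2A.Z region there.

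The sequences below are the whole 250-bp lost H2A.Z region in the intron of GATA6, the promoter of GATA6, where H2A.Zac was lost over unchanged H2A.Z, and the promoter of GATA3, where H2A.Z was unchanged. The promoters are the 250 bases before the first RefSeq start (GRCh38.p14), all are on the plus strand, and capitals mark the same hexamers as above.
GATA6 intron, chr18:22190666-22190915: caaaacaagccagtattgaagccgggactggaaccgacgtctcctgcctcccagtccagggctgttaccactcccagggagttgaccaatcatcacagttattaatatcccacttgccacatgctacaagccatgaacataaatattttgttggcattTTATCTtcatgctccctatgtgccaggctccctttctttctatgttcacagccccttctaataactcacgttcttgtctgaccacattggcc
GATA6 promoter, chr18:22169339-22169588: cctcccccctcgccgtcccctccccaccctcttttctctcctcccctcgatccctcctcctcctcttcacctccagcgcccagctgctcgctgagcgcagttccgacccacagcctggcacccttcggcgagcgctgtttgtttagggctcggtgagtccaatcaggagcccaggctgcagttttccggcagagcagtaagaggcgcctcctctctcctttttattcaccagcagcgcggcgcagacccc
GATA3 promoter, chr10:8045083-8045332: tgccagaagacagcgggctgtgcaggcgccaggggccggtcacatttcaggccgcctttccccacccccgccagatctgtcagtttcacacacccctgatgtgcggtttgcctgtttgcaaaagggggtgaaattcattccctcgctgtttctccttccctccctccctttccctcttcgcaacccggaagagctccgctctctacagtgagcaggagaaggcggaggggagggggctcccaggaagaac
The intron region of GATA6 holds 1 match and the promoters hold none. In the middle 250 bases of all 63442 H2A.Z regions 26.5% held a match, and among 35116 RefSeq promoter stretches of the same length 22.3% did. RefSeq promoters were matched by symbol for GATA3 (6 entries) and GATA6 (1 entry).

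GATA3 (ENSG00000107485, plus strand, chr10:8045378-8075198) had few and weak changes. At its first start, H2A.Z at chr10:8045072-8045989 and H2A.Zac at chr10:8045512-8045870 were both unchanged, with ratios of 0.900 and 0.758. Near the start of its main transcript at position 8054688, H2A.Zac was lost at chr10:8053602-8053982 with a ratio of 4.90, and 99.5% of that region lay on an unchanged H2A.Z region. The same place holds the start of GATA3-AS1, a divergent antisense RNA, and ENSG00000232638, which lies within GATA3, has no listed region within 1 kb of its start. Beyond the gene end, at 8.34 kb, a lost H2A.Zac region at chr10:8083535-8084031 (4.18) and, at 8.04 kb, a lost H2A.Z region at chr10:8083233-8083482 (3.34) each overlapped an unchanged region of the same mark. The ratio of 3.34 is just above the authors' cutoff, and only 60 of the 12592 lost H2A.Z regions were lower.

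GATA4 (ENSG00000136574, plus strand, chr8:11676959-11760002) had no listed region of either mark within 1 kb of its first start or of the start of its main transcript at position 11704202. An unchanged H2A.Z region at chr8:11692576-11692857 (0.221) lay in an exon, within 1 kb of the start of another transcript of GATA4. Its 6 H2A.Z regions had ratios from 0.221 to 0.881. The lost H2A.Zac region lay in an intron at chr8:11739707-11740301 with a ratio of 5.03. The gained H2A.Zac regions lay beyond the gene end at chr8:11761920-11762593 (5.57) and chr8:11769057-11769594 (5.38). The second of these is at the start of NEIL2, a DNA glycosylase gene whose start is at position 11769639, and it lies in the GATA4 window by its nearness alone. All 3 changed regions lay on unchanged H2A.Z and overlapped unchanged H2A.Zac.

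Changed regions of GATA3, GATA4 and GATA6 mostly shared bases with unchanged ones. Of their 15 changed regions, 11 overlapped an unchanged region of the same mark, and the window of GATA5, chosen for its classes, holds no unchanged region that its 12 could overlap. Over the genome this overlap was found for 36.1% of lost and 46.1% of gained H2A.Z regions, and for 37.5% of lost and 55.7% of gained H2A.Zac regions. Of those 15 regions, 2 had a ratio above the genome median of their mark and class, both in introns of GATA6. An H2A.Zac region was counted as on unchanged H2A.Z where at least 25% of its length lay there. This held for 4 of 4 at GATA3, 9 of 10 at GATA4 and 7 of 8 at GATA6. At GATA5 this was 0 of 7, since no unchanged H2A.Z region was listed there. The same share over all H2A.Zac regions of the genome is not given here, so these counts are a description only.

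**Figure D3:**
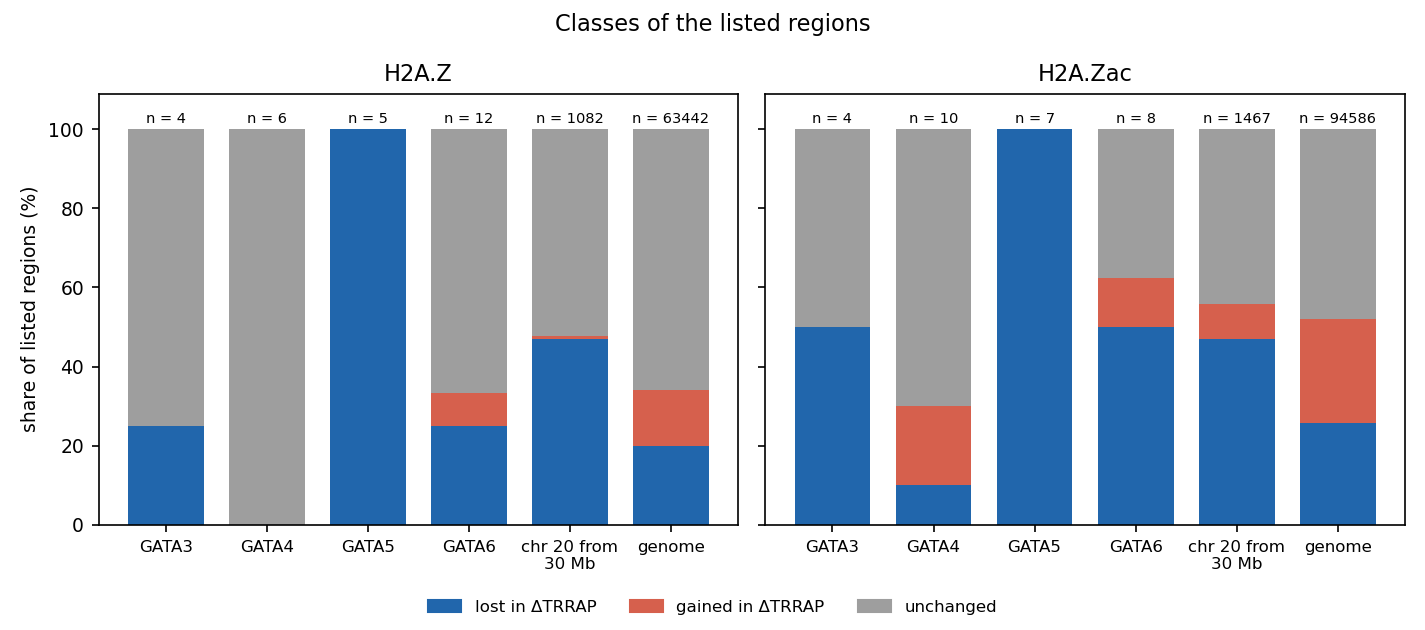
Share of listed regions in each class, in percent, for H2A.Z and H2A.Zac at the 4 genes, on chromosome 20 from 30 Mb to its end, and in the genome, with the number of regions above each bar. GATA5 is lost throughout, and chromosome 20 from 30 Mb has a larger lost share (47.0% for H2A.Z and 46.9% for H2A.Zac) than the genome (19.8 and 25.9%).

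GATA5 lies in a long stretch of the long arm of chromosome 20, from 30 Mb to the chromosome end, a span picked with earlier results known, in which changed regions were mostly lost. Of 1082 H2A.Z regions there, 509 were lost, 8 gained and 565 unchanged, and of 1467 H2A.Zac regions 688 were lost, 130 gained and 649 unchanged. Gained regions made up 1.55% of the changed H2A.Z regions and 15.9% of the changed H2A.Zac regions, against 41.6 and 50.4% over the genome. The direction at GATA5 was the same as that of most changed regions around it, and the part of the stretch in the result was not tested. Whether the lines differ in DNA copy number over the stretch, which would bear on every loss called there, was not tested, since the inputs were not analysed here.

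Most gene windows of that stretch also held unchanged regions, unlike GATA5. Without GATA5, all H2A.Z regions were lost at 17 of 317 gene windows of the stretch (5.36%), all H2A.Zac regions at 21 of 321 (6.54%), and both marks at 14 of 314 (4.46%). The most frequent pattern there was lost and unchanged regions side by side, at 74.8% of H2A.Z windows and 57.9% of H2A.Zac windows. The promoter region of GATA5 had the highest ratio of the 47 genes of the stretch with a lost H2A.Zac region on their start, whose median was 12.0, and of the 32 with a lost H2A.Z region, whose median was 6.51. Among all 688 lost H2A.Zac regions of the stretch, the promoter region of GATA5 was rank 3 and its far upstream region rank 7. GATA5 was chosen from the classes of these regions, which rest on the same ratio. Its ranks in the stretch and in the genome are therefore a description only.

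Within 1 Mb on either side of GATA5, outside its window, 47 H2A.Zac regions were lost, 6 gained and 43 unchanged, and 23 H2A.Z regions were lost, 0 gained and 38 unchanged. The lost H2A.Zac regions there had a median ratio of 9.48 and a highest ratio of 30.3, which 3 of the 7 regions of GATA5 exceeded. Of 29 other protein-coding genes there with an H2A.Zac region, 1 was lost throughout. The surroundings of the other genes held changes in both directions. Gained H2A.Zac regions were 11 of 23 changed around GATA3, 29 of 46 around GATA4 and 12 of 40 around GATA6. For H2A.Z they were 1 of 6, 8 of 16 and 5 of 20.

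**Figure D4:**
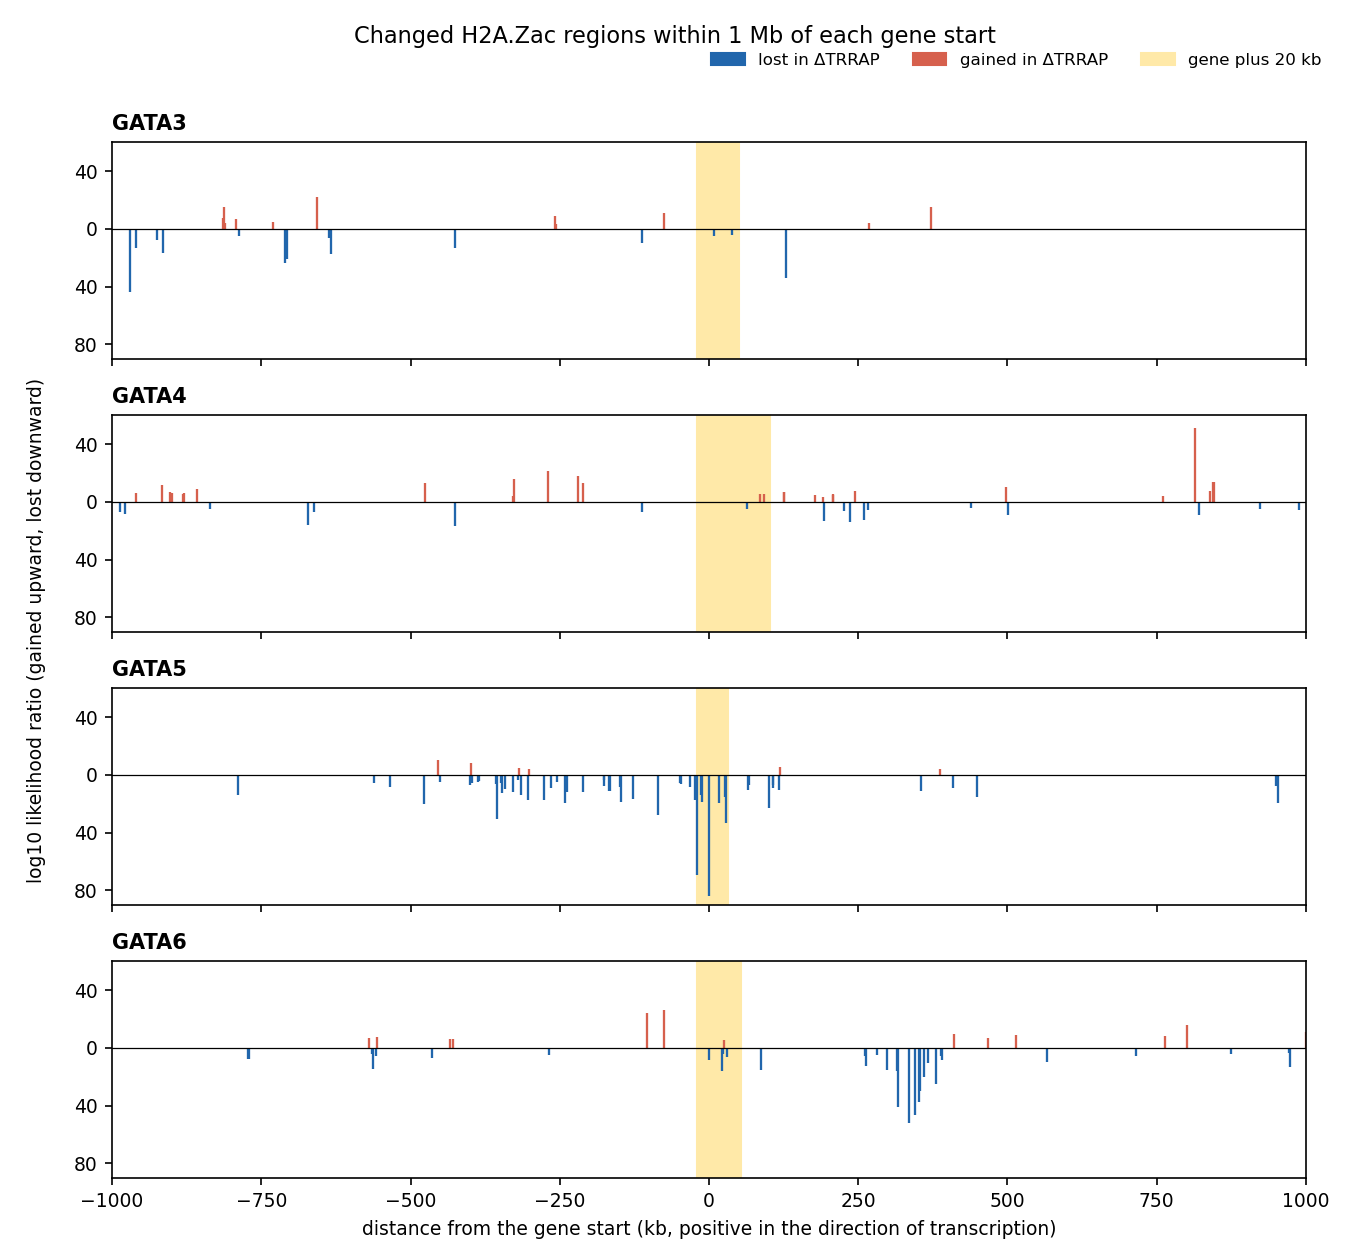
Changed H2A.Zac regions within 1 Mb of each gene start, by distance in kb, with the log10 likelihood ratio drawn upward for gained and downward for lost regions and the gene window shaded. Around GATA5 nearly all lines point downward and the deepest, 83.6 and 69.6, are in its window, while the strongest changes around GATA3, GATA4 and GATA6 lie outside their windows.

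The nearest regions outside the windows show how much the 20 kb limit decides. Next to GATA5, the first H2A.Zac region on each side was also lost, at chr20:62499911-62500369 (ratio 17.1, 23.9 kb upstream of the gene) and at chr20:62409752-62411081 (10.1, 52.4 kb downstream). Next to GATA3, the first was gained upstream (11.2, at 74.7 kb) and lost downstream (33.8, at 99.2 kb). Next to GATA6, the first was gained upstream (26.4, at 73.6 kb) and lost downstream (15.3, at 54.2 kb). Next to GATA4, the first was lost upstream (6.83, at 112.2 kb) and unchanged downstream (0.814, at 39.4 kb). Both neighbors of GATA3 and the upstream neighbors of GATA4 and GATA6 had higher ratios than every changed region inside the window of the same gene. With windows of 50 kb on either side, 6 of 7 H2A.Z and 11 of 13 H2A.Zac regions of GATA5 were lost and none was gained, so that a window lost throughout depends on the limit chosen.

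None of the 8 other zinc finger relatives and cofactors of GATA factors, in the same kind of window, was lost throughout for either mark. Over all protein-coding genes with a region this was 1.19% for H2A.Z and 2.92% for H2A.Zac, so 0 of 8 is near those shares. Of 8 such genes, 0 had all H2A.Zac regions lost, 1 had only lost among its changed regions (GATAD1), 2 had only gained (GATA2 and TRPS1), and 5 had both (GATA1, GATAD2A, GATAD2B, ZFPM1 and ZFPM2). Among all protein-coding genes these shares were 15.7% only lost, 22.7% only gained and 43.2% both. GATA2, an early blood factor, had 3 gained and 1 unchanged H2A.Zac region and no listed H2A.Z region. GATA1, the erythroid factor, had 1 lost, 4 gained and 6 unchanged H2A.Zac regions, and its 3 H2A.Z regions were unchanged. TRPS1, a GATA-type repressor, had 12 gained and 9 unchanged H2A.Zac regions, and for H2A.Z 7 gained and 6 unchanged. ZFPM1, the cofactor known as FOG1, had 4 lost, 3 gained and 8 unchanged H2A.Zac regions, and its 2 changed H2A.Z regions were lost. For H2A.Z, only lost changes were seen at 2 of the 8 genes, only gained at 1 and both at 3, against 23.4, 19.7 and 11.7% of all protein-coding genes.

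Of 18 heart and endoderm partners of GATA4, GATA5 and GATA6, H2A.Zac changes were only lost at 5 and only gained at 4, none had both, 2 genes had unchanged regions alone and 7 had no listed region. Every H2A.Zac region was lost at 3 of them, SOX17, BMP4 and HNF4A, each with 1 such region. At HNF4A, which like GATA5 is on chromosome 20, both H2A.Z regions were lost as well (2 of 2). On the same chromosome, FOXA2 had lost and unchanged regions of both marks and BMP2 had no listed region. TFAP2C, of the GATA3 list below and also there, had 1 unchanged H2A.Z region and no H2A.Zac region. These genes were named after their values were seen. Among all protein-coding genes 12.7% had no listed H2A.Zac region in the window. Of the 17479 genes with such a region, 2.92% were lost throughout, as given above. That share covers windows with any number of regions, while 25.9% of single H2A.Zac regions of the genome were lost. Of 13 partners and targets of GATA3, H2A.Zac changes were only lost at 1, only gained at 3 and both at 6, and every region was lost at 1, BCL11B, also named after its values were seen. For H2A.Z, changes were only lost at 4 and only gained at 3 of the 18 heart and endoderm genes, and only lost at 2, only gained at 2 and both at 3 of the 13 genes of the GATA3 list, beside the shares over all genes given above.

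As a check of the labelled line, the erythroid and leukemia genes TAL1, KLF1, NFE2, LMO2 and EPOR and the fetal globin genes HBG1 and HBG2 had a listed H2A.Zac region within 1 kb of their start, as did 62.3% of 20033 protein-coding genes. A listed H2A.Z region lay there at KLF1, LMO2 and EPOR but not at TAL1, NFE2, HBG1 or HBG2, and at 60.1% of all genes, so these marks are no specific check of the line. GATA1 had neither mark there, and its listed regions lie elsewhere in its window. The start of GATA5, GATA3 and GATA6 also had H2A.Zac regions in this line, and a listed region is not a measure of RNA, which was not analysed here.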

How the data were processed

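H2A.Z and H2A.Zac ChIP-seq was carried out with 2 replicates per mark and line, with inputs. Per the labels and the methods, the authors aligned reads to hg38 with Bowtie2 2.4.5, merged replicates, and compared the lines with MACS2 2.2.7.1 bdgdiff (cutoff 3), keeping regions that lay for at least 25% of their length in reproducible peaks (IDR threshold, 0.05). Each of the 6 deposited lists gives a score per region, a log10 likelihood ratio computed by the authors. Merging and scaling are already in the lists, and library depth is unknown here.

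Regions overlapping the gene body plus 20 kb (GENCODE 44) by 1 bp were taken. A promoter is within 1 kb of the gene start, and GC and motifs came from hg38. Wilson 95% intervals of shares served only as limits for the alternative settings. Python 3.11.15, pandas 2.3.3, scipy 1.17.1 and bedtools 2.31.1 were used, and counting was tested on 200 simulated windows (0 differed from bedtools). The members, gene lists and the span of chromosome 20 were chosen with earlier results of these data known. Besides the 4 genes, those in their windows and the 8 relatives and cofactors are named by rule, and other lists by count, except for the few genes said to be named after their values were seen, with K562 marker genes named as a check, of which 1 is not reported here. Inputs, signal tracks and expression were not analysed here.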

Additional observations from a re-analysis of the deposited data

How the results depend on the processing

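Of 214 values under alternative settings, covering 51 results, 186 stayed within the limits set (the Wilson interval for a share, 1.5 times for a count), 28 moved and 0 reversed. At single genes these intervals rest on few regions, which are not independent, so the limits are wide. For H2A.Z at GATA5, lost shares of 80% and 85.7% in place of 100% counted as within them. Shares of 0% that stayed at 0% were counted so too. The number that stayed is therefore no measure of how firm the shares at single genes are. The lost share at GATA5 stayed at 100% for both marks under all but 3 settings. Windows of 50 kb gave 85.7% for H2A.Z and 84.6% for H2A.Zac, and for H2A.Z a ratio of at least 5 gave 80% and of at least 10 gave 20% (1 of 5). With a ratio of at least 10, the lost share fell to 0% for both marks at GATA3, for H2A.Zac at GATA4 and for H2A.Z at GATA6, and to 12.5% for H2A.Zac at GATA6, and every gained share of GATA4 and GATA6 was 0%. With at least 5, the lost share was 0% for both marks at GATA3 and 8.33% for H2A.Z at GATA6, the gained share for H2A.Z at GATA6 was 0%, and 1.05% of gene windows were all gained for H2A.Z. In the gene body alone, the lost H2A.Z share at GATA3 and the gained H2A.Zac share at GATA4 were 0%. Leaving out changed regions that overlap an unchanged region, an alternative chosen after seeing the data, gave a lost share of 0% for H2A.Z at GATA3 and H2A.Zac at GATA4, and a gained share of 0% for H2A.Zac at GATA4 and both marks at GATA6. With 10 kb to each side, gene windows all lost and all gained were 1.51 and 1.48% for H2A.Z and 3.57 and 3.37% for H2A.Zac, and 1 of the 8 relatives and cofactors had only lost H2A.Z changes. H2A.Zac regions on a lost H2A.Z region were 1 at GATA3 with an overlap of 1 bp and 0 at GATA6 with 50%. The other alternatives moved no other value beyond those limits. They were windows of 50 kb, midpoints, base pairs, merging within 1 kb, RefSeq bounds, starts of all transcripts, 2 kb around the gene start, and surroundings of 2.5 Mb. Another, chosen after seeing the data, was gene windows without chromosome 20 from 30 Mb.

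No paired analysis was possible because each list comes from 1 comparison of merged replicates, which also means that leaving out a replicate was not possible. Counts per gene are small, and the depth, which limits what is called, is unknown here.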
